A study of Caenorhabditis elegans with 2 samples.

Results

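Fibrillarin (fib-1) and 5 further genes for nucleolar proteins (nol-56, nol-58, nol-6, nol-10 and nol-14) were examined for regions bound by MEP-1 in embryos of the nematode Caenorhabditis elegans. These 6 genes, of 19973 nuclear protein-coding genes in the annotation, were selected by symbol with the peak lists already known, so their peaks were part of the choice and are given as a description without a test. The data are chromatin immunoprecipitation followed by sequencing (ChIP-seq), in which DNA fragments bound by a protein are recovered and sequenced, with eGFP-tagged MEP-1 as the target. The samples are 2 biological replicates of 1 group of whole worms at mixed embryonic stages, males and females pooled, from strain OP70. This strain comes from the CGC, carries the unc-119(ed3) mutation on chromosome III and holds the integrated mep-1 transgene wgIs70. Each replicate is therefore a pool of animals in which all embryonic cell types are mixed, and neither the promoter of the transgene nor the collection of the embryos is described in the sources used here. Library fragments ranged from 150 to 350 bp, and no second condition exists.

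The nucleolus is where ribosomal RNA is made, modified and cut, and where ribosomal subunits begin to assemble. Fibrillarin is the enzyme that adds methyl groups to the ribose of ribosomal RNA. It works in a particle with the scaffold proteins that nol-56 and nol-58 encode (NOP56 and NOP58 in yeast and human) and with a box C/D small nucleolar RNA (snoRNA) that guides it to its site. The genes nol-6, nol-10 and nol-14 encode homologs of yeast UTP22, ENP2 and NOP14, which belong to the small subunit processome, the large particle that assembles and cuts the precursor of the small ribosomal subunit. The bound protein, MEP-1, has zinc fingers and acts in a repressor complex with LET-418, a nucleosome remodeller of the Mi-2 family, and HDA-1, a histone deacetylase. Among its known roles is the silencing of germline genes in the soma.

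The values come from 4 deposited lists of regions on ce11, the same assembly as WBcel235. One list exists for each replicate, one for the pooled reads, and one holds the optimal set of the irreproducible discovery rate (IDR) procedure. That procedure weighs the agreement of ranks between replicates, but a region of the set need not rank alike in both. Each region has a summit and a deposited signal value, a strength without a unit, by which regions were ranked within a list. The IDR set had 2404 peaks, with signal values between 34.2 and 357.3 and a median of 52.4, and these were the 2404 strongest of 30000 pooled regions. Replicate 1 had 25216 regions, with a median of 3.45 and a highest value of 90.3. Replicate 2 had 30000 regions, with a median of 8.77 and a highest value of 320.3. Each comparison of signal values stays inside 1 list, and read depth is unknown.

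The sequences around 4 of the 7 summits of the IDR set at these genes are shown. They are the summits to which the gene itself has the nearest 5′ end, and the results below use all 7. Each line is on the strand of its gene, from the 5′ to the 3′ side on ce11, and is centred on the summit. The fib-1 stretch covers chrV:15002239-15002389, the nol-56 stretch chrV:10353129-10353279, the nol-6 stretch chrII:1437764-1437914 (all on the minus strand), and the nol-10 stretch chrIV:7580313-7580463 (on the plus strand). Capitals mark a run of 14 bases that the fib-1 and nol-56 stretches share, and the other lines have none.
fib-1: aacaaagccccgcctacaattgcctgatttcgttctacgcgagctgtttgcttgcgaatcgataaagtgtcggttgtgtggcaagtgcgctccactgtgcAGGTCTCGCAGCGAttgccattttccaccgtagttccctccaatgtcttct
nol-56: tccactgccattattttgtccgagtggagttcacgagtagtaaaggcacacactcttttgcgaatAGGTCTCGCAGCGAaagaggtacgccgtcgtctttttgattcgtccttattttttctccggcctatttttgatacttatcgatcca
nol-6: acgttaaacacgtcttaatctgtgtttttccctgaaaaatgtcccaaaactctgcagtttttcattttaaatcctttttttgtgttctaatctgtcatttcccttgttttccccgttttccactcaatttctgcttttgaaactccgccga
nol-10: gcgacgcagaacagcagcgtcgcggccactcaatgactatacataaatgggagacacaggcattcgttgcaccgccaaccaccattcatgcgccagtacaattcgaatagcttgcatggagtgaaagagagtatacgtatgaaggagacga

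Every one of the 6 genes had a summit of the IDR set in the window from 2 kb upstream of its annotated 5′ end to its 3′ end. By the same rule 16.1% of all 19973 protein-coding genes had one, a background from which nothing is read, since the genes were chosen from these lists. The windows held 7 IDR summits, 2 of them at nol-58 and 1 at each of the other genes. All 7 lay upstream, between 91 and 984 bp from the 5′ end of the gene, and the gene bodies held none. Weaker candidates brought the number of summits in the windows to 15 in the pooled list, 14 in replicate 1 and 13 in replicate 2. Of these, 5, 3 and 4 lay in gene bodies. The pooled and replicate lists also hold background regions, so a weak candidate here and below need not be a bound site. Measured from the nearest 5′ end of any protein-coding gene instead, 6 of the 7 lay upstream, all but the weaker nol-58 summit, which lay 652 bp inside zip-4. By that measure 78.9% of all IDR summits lay upstream, with a median position of -177 bp.

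**Figure D1:**
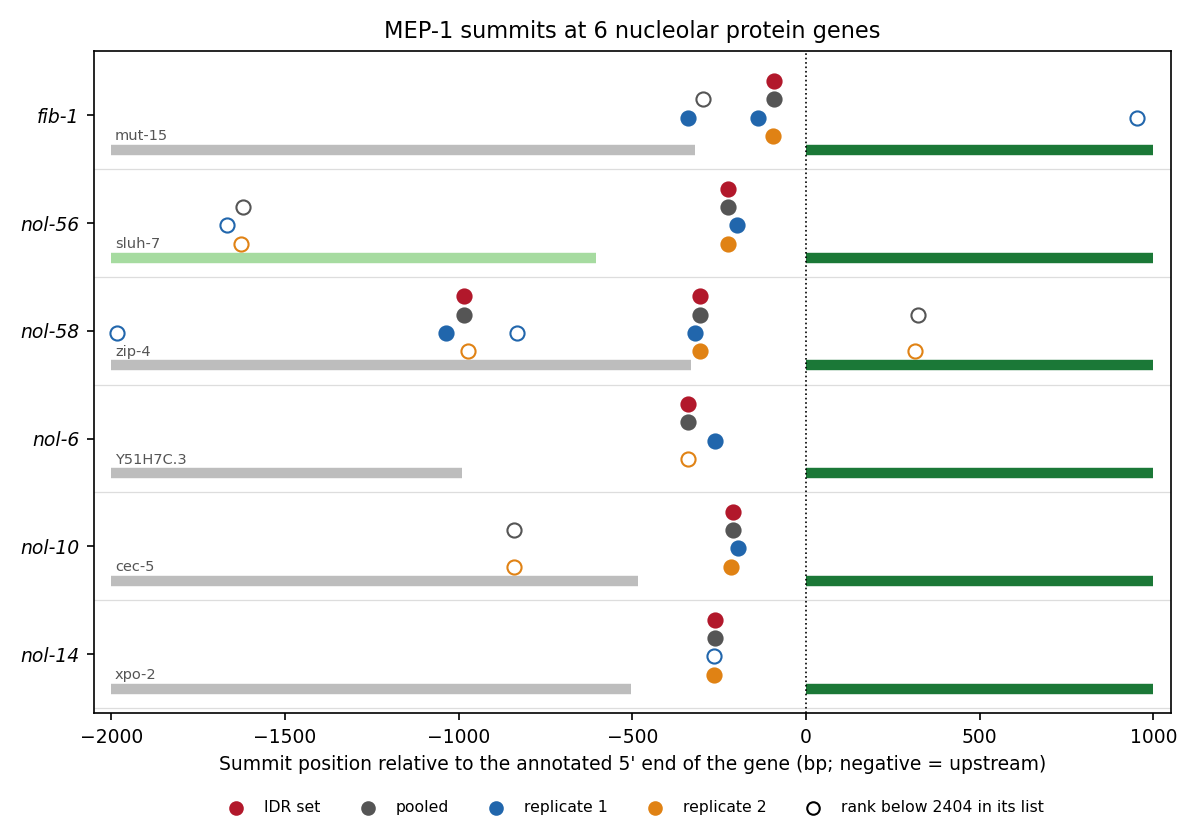
Summit positions (bp from the annotated 5′ end, negative upstream) at the 6 genes in the IDR set, the pooled list and the lists of replicates 1 and 2, with filled circles for summits among the 2404 strongest of their list and open circles for weaker ones. Dark green bars are the first 1000 bp of each gene, grey bars the neighbour on the opposite strand and the light green bar the same-strand neighbour sluh-7, and the 7 IDR summits (red) all lie left of the dotted 5′ end. Summits more than 1000 bp inside a gene, found at nol-6 and nol-14, are not drawn.

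Among the genes of the box C/D particle, fib-1 had the strongest summit in the pooled list and in replicate 1, whereas in replicate 2 the stronger nol-58 summit was higher. The fib-1 gene (WBGene00001423) lies on the minus strand of chromosome V from 15000651 to 15002223. Its IDR region, 15002228 to 15002393, had its summit 91 bp upstream of the gene, in intergenic sequence, and a pooled signal of 124.6, which was rank 119. In replicate 1 the matching summit had a signal of 37.4 (rank 38) and lay 138 bp upstream. In replicate 2 it had a signal of 89.7 (rank 175) and lay 94 bp upstream. Both replicates thus placed fib-1 among their strongest regions. The region was 166 bp wide in the pooled list and 152 bp in replicate 2, narrower than the usual widths of 336 and 330 bp, whereas replicate 1 gave its usual 380 bp. RefSeq places the fib-1 5′ end 114 bp further downstream than Ensembl does, so the distance would be larger with that annotation, and the 5′ ends of the other 5 genes are the same in both.

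The interval upstream of fib-1 is shared with mut-15, a gene of the mutator pathway for small RNAs. Its 5′ end lies 320 bp from that of fib-1 on the opposite strand, and the fib-1 summit lies 229 bp upstream of it. A second, weaker candidate region lay at the mut-15 end of the interval. It had a signal of 8.06 (rank 22535) in the pooled list and 8.5 (rank 2199) in replicate 1, and replicate 2 listed none there. Inside fib-1 the only candidate was 1 region of replicate 1, in coding sequence 952 bp from the 5′ end, with a signal of 4.22 (rank 8857). The ribosomal protein gene rps-16 starts 109 bp beyond the 3′ end of fib-1 on the same strand, and its 5′ end is the nearest to that weak candidate.

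The nol-56 gene (WBGene00010627) lies on the minus strand of chromosome V from 10350466 to 10352978, and its IDR summit was 226 bp upstream. The signal was 61.8 (rank 866) in the pooled list, 15.1 (rank 759) in replicate 1 and 47.8 (rank 958) in replicate 2. The 3 lists thus gave it ranks of the same order. The neighbour upstream, sluh-7, a homolog of the splicing factor gene SLU7, lies on the same strand with a gap of 604 bp, so nol-56 shares its promoter interval with no opposite-strand gene. Weak candidates in the coding sequence of sluh-7 had signals of 12.3 (rank 11031) in the pooled list, 7.68 (rank 2684) in replicate 1 and 5.49 (rank 29532) in replicate 2. A further IDR summit lay outside the window, 3134 bp upstream of nol-56 and 289 bp upstream of sluh-7, with a pooled signal of 40.3 (rank 1881).

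The nol-56 gene also holds 4 annotated snoRNA genes on its own strand, K07C5.10, K07C5.11, K07C5.12 and K07C5.18, which are 127 to 136 bp long. All 4 lie in introns of nol-56, at 368 to 2292 bp from the IDR summit. No list had a candidate summit inside nol-56, and so none fell on these snoRNA genes. No other protein-coding gene of the 19973 held as many as 4 snoRNA genes on its strand. At least 1 was held by 96 of the 3214 protein-coding genes with an IDR summit (2.99%) and by 159 of all 19973 (0.796%).

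At nol-58 (WBGene00020915, chromosome I, 3267094 to 3269112, plus strand) the replicates differed in which of the 2 summits was higher. The summit 306 bp upstream had a signal of 111.3 (rank 156) in the pooled list. It had a signal of 11.4 (rank 1249) in replicate 1 and 100.1 (rank 120) in replicate 2. The summit 984 bp upstream had a pooled signal of 38.5 (rank 2017). It had a signal of 15.8 (rank 671) in replicate 1, above that of the other summit, and 23.0 (rank 3137) in replicate 2, below it.

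Both nol-58 summits were nearer to zip-4, a gene for a bZIP transcription factor, which starts 332 bp from nol-58 on the opposite strand. The stronger summit lay 26 bp upstream of zip-4 in a region only 87 bp wide, and the weaker one lay in an intron of zip-4, 652 bp from its 5′ end. Replicate 1 alone listed further candidates over zip-4, 832 and 1983 bp upstream of nol-58, with signals of 4.32 (rank 8456) and 2.2 (rank 22957). The body of a further gene, tyr-5, ends within 2 kb of the weaker summit. Inside nol-58, replicate 2 and the pooled list had a candidate in coding sequence, 313 and 322 bp from the 5′ end, with signals of 12.9 (rank 7597) and 14.8 (rank 7908). The pooled value of 14.8 was the highest of any candidate at the 6 genes outside the IDR set. For comparison, the weakest IDR summit at these genes, that of nol-6, had 36.6, and the lowest peak of the IDR set had 34.2.

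Of nol-6, nol-10 and nol-14, nol-10 had the highest signal in every list. The nol-10 gene (WBGene00017989) lies on the plus strand of chromosome IV from 7580597 to 7583726, with its IDR summit 209 bp upstream. The signal was 91.2 (rank 320) in the pooled list, 18.4 (rank 462) in replicate 1 and 70.7 (rank 358) in replicate 2. On the opposite strand, 485 bp away, starts cec-5, a chromodomain gene, and the summit lay nearer to nol-10 than to cec-5 (209 against 276 bp). An intron of cec-5 held a weak candidate in the pooled list (12.2, rank 11272) and in replicate 2 (14.1, rank 6543), and replicate 1 listed none there.

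The nol-6 gene (WBGene00021789, chromosome II, 1425732 to 1437499, minus strand) is the longest of the 6, with 11768 bp, and had the weakest of the 7 summits in the pooled list, though not in either replicate. That summit lay 340 bp upstream, with a signal of 36.6 (rank 2186) in the pooled list. In replicate 1 the signal was 14.6 (rank 800), at a summit 79 bp away from the pooled one, and in replicate 2 it was 23.7 (rank 3025). It therefore stood among the 2404 strongest regions in replicate 1 but not in replicate 2. The gene body held 4 candidates in the pooled list, 1 in replicate 1 and 3 in replicate 2, with ranks between 13982 and 28604. The opposite-strand neighbour Y51H7C.3 starts 991 bp upstream, 651 bp from the summit, and the body of Y51H7C.12 also comes within 2 kb of it.

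At nol-14 (WBGene00021660, chromosome I, 323855 to 330987, plus strand) the order of the replicates was the other way round. Its summit, 262 bp upstream, had a signal of 38.9 (rank 1988) in the pooled list. The signal was 4.45 (rank 7990) in replicate 1 and 31.4 (rank 2048) in replicate 2. The summit positions differed by at most 4 bp from the pooled one, so the lists placed the summit alike and ranked it differently. The neighbour xpo-2, which encodes an exportin, starts 503 bp away on the opposite strand, and the summit was slightly nearer to it (241 bp) than to nol-14. A candidate in an intron of nol-14, in replicate 1 only, had a signal of 2.18 (rank 23120).

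**Figure D2:**
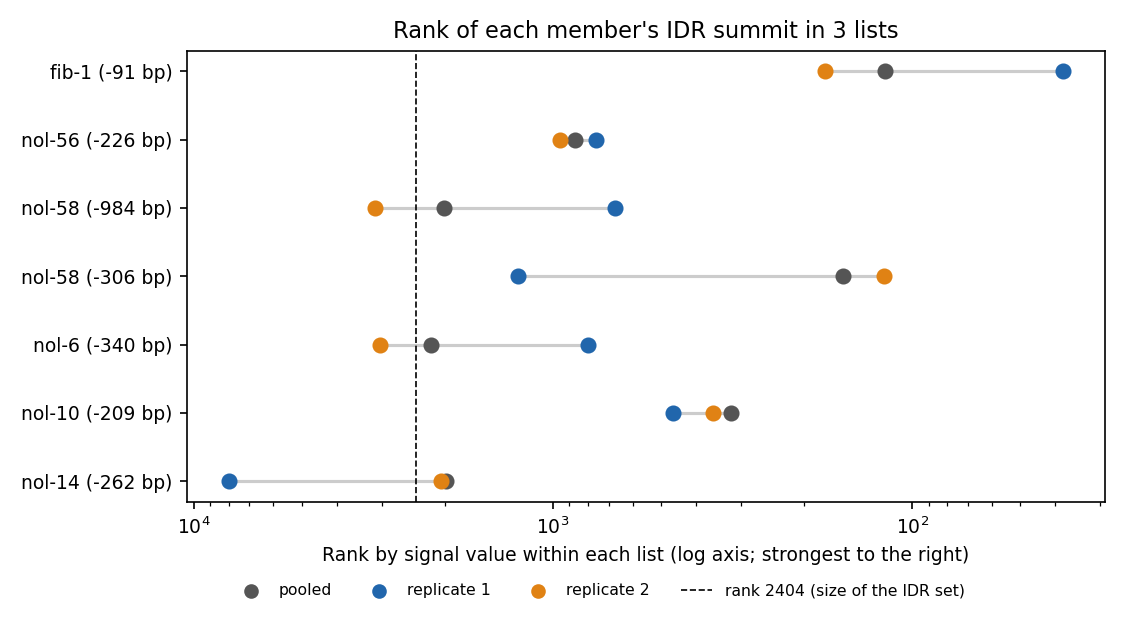
Rank of each of the 7 IDR summits (rows, with distance to the 5′ end) in the pooled list and in replicates 1 and 2, on a log axis with the strongest rank to the right and a dashed line at rank 2404. The nol-56 and nol-10 summits have close ranks on the log axis in all 3 lists, whereas nol-14 ranks 7990 in replicate 1 and 2048 in replicate 2.

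All 7 summits had a matching summit within 100 bp in both replicates. Of all 2404 IDR peaks, 2002 (83.3%) had one in both. Ranks of matched IDR peaks had a median of 1286 in replicate 1 (quartiles 558 and 3110) and of 1192 in replicate 2 (quartiles 594 and 1809). The rank of 7990 at nol-14 was low for replicate 1, where 186 of 2032 matched IDR peaks ranked as low or lower. The rank of 3137 at the weaker nol-58 summit was low for replicate 2, where 63 of 2367 did. With the 2404 strongest regions of replicate 2 alone, 5 of the 6 genes had a summit, all but nol-6, against 15.7% of all protein-coding genes. With those of replicate 1 alone, 5 of the 6 had one, all but nol-14, against 14.3%.

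For 4 of the 7 summits the gene itself had the nearest 5′ end of any protein-coding gene, and these were at fib-1, nol-56, nol-6 and nol-10. Counted in this way, 4 of the 6 genes had an IDR summit, against 9.92% of all protein-coding genes. An opposite-strand gene started within 1000 bp upstream of 5 of the 6 genes (83.3%), all but nol-56. The share was 43.2% (16 of 37) for the other nucleolar genes described below, 37.1% (1192 of 3214) for protein-coding genes with an IDR summit, and 17.7% (3539 of 19973) for all protein-coding genes. A summit in such an interval lies upstream of both genes, and the lists do not assign it to either.

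**Figure D3:**
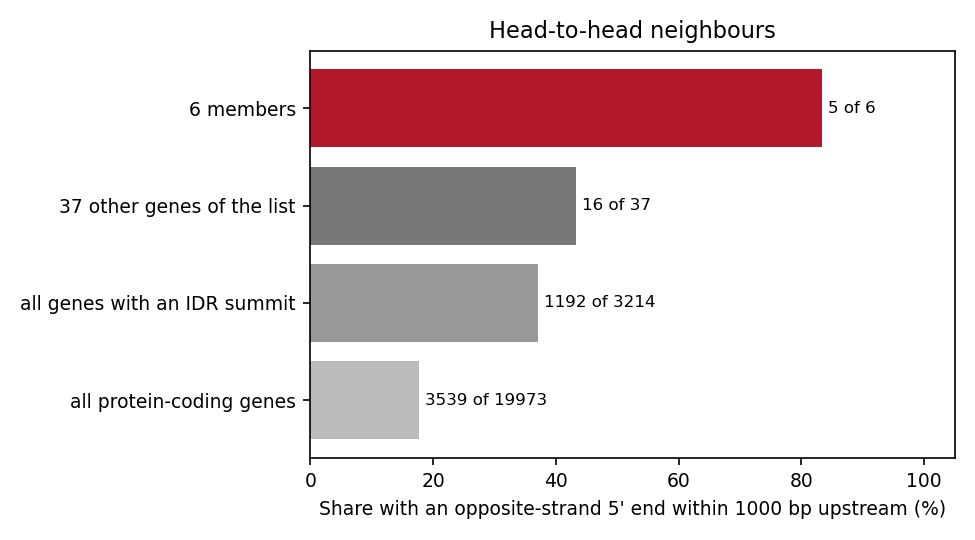
Share of genes (%) with the 5′ end of an opposite-strand protein-coding gene within 1000 bp upstream, for the 6 genes (red), 37 other nucleolar and ribosome biogenesis genes, all protein-coding genes with an IDR summit and all protein-coding genes. The bars stand at 83.3%, 43.2%, 37.1% and 17.7%, and the labels give the counts.

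Of 37 other genes for nucleolar and ribosome assembly proteins, 25 (67.6%) had an IDR summit in the same window, beside the 16.1% of all protein-coding genes given above. This list was also chosen with earlier results of these data known, so the shares are a description. All 25 had their strongest summit upstream. In 16 of the 37 (43.2%) the gene itself had the nearest 5′ end, beside 9.92% of all protein-coding genes. The strongest signal per gene had a median of 76.5 over the 6 genes and of 61.5 over these 25. The median of all IDR peaks was 52.4, which counts every peak rather than the strongest per gene, so it is not a like measure. The values ran between 36.6 and 124.6 over the 6 genes and between 34.6 and 131.1 over the 25, so the ranges overlapped.

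The fourth core protein of the box C/D particle is encoded by snu-13, which had a summit of 91.1 (rank 321) 297 bp upstream, slightly nearer to rsp-7. All 4 genes for the core proteins of this particle thus had an IDR summit in the window, beside 16.1% of all protein-coding genes. These genes were chosen with earlier results known, and the summits at nol-58 and snu-13 were nearer to another gene. The box H/ACA particle, which converts uridines to pseudouridines in ribosomal RNA, had a summit at each of the 3 listed genes that matched the annotation, and 1 further listed gene of this particle had no match and was not analysed. The gene dkc-1, a homolog of the dyskerin gene and thus the counterpart of fib-1 in that particle, had the highest value of the whole list, 131.1 (rank 95), at 233 bp upstream. The other values were 102.1 at Y48A6B.3 (a homolog of NHP2), nearer to fipr-17, and 83.6 at nola-3, nearer to C25A1.16.

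Besides nol-6, nol-10 and nol-14, the list places 10 genes, dao-5 among them, in its processome and small subunit group. Of these, 6 had an IDR summit, with signals between 41.1 and 81.7. The highest were at wdr-46 (81.7), rbd-1 (80.8, nearer to T23F6.3), dao-5 (75.5) and nath-10 (57.7), a homolog of the acetyltransferase gene NAT10. In the pooled list the value of nol-10 (91.2) lay above this range and those of nol-6 and nol-14 (36.6 and 38.9) below it. The order was another in replicate 1, where nol-10 (rank 462) stood behind wdr-46 (rank 204), riok-2 (rank 285) and rbd-1 (rank 311). There nol-6 (rank 800) stood ahead of nath-10 (rank 1448) and dao-5 (rank 1493). Of the large subunit assembly genes, 8 of 14 had one. Their highest values were at lpd-7 (119.7, nearer to the ribosomal protein gene rpl-9), nog-1 (62.9, nearer to T07A9.15), eif-6 (61.5, nearer to pbs-2) and nsun-1 (48.2).

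RNA polymerase I, which transcribes the ribosomal RNA precursor, and its initiation factor had a summit at 5 of 7 listed genes. The highest were at tif-1A (93.1), which encodes the initiation factor, rpac-19 (75.2), rpoa-49 (63.5, a summit 1213 bp upstream and nearer to nfyc-1) and rpoa-1 (45.9). Both listed regulators had one. These were nucl-1, the nucleolin gene (51.0), and ncl-1, which is known for keeping nucleoli small (41.5, 1269 bp upstream). At ncl-1 and riok-1 no summit of replicate 1 lay within 100 bp of the IDR summit, and at nst-1 no summit of replicate 2 did. The strongest IDR summits at the rest of the 25 genes were matched in both replicates. So were all 7 summits of the 6 genes and 83.3% of all IDR peaks.

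**Figure D4:**
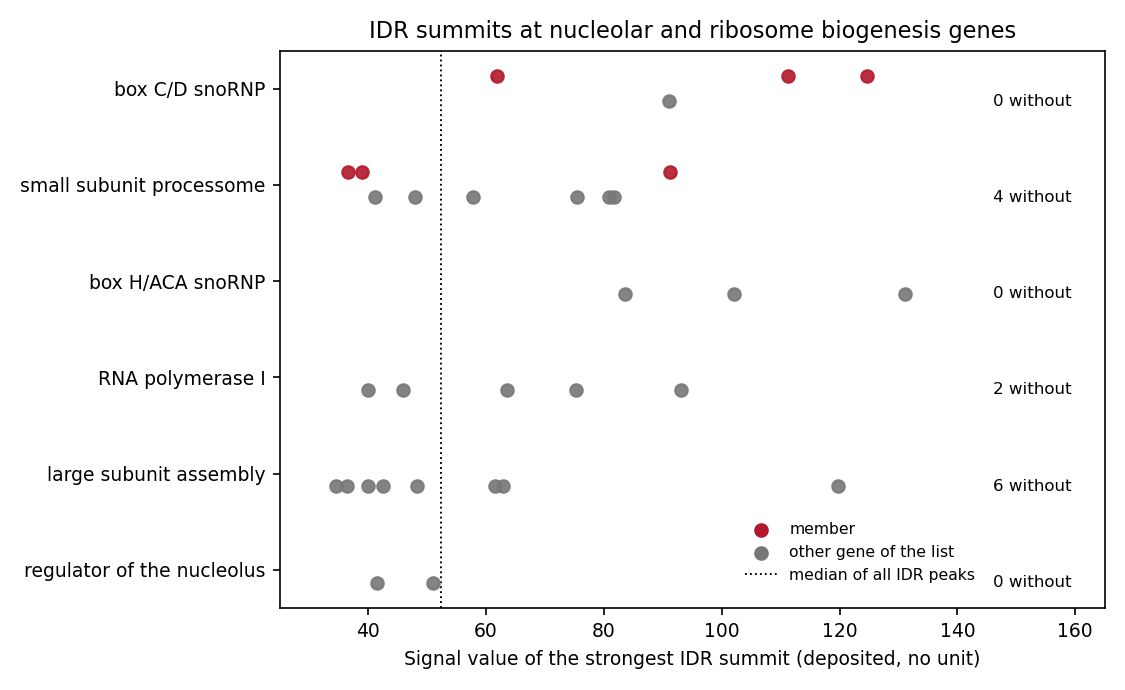
Deposited signal value of the strongest IDR summit (no unit) at the 6 genes (red) and at other genes of the same list (grey), by role, with the number of other genes without an IDR summit at the right. The dotted line is the median of all IDR peaks, 52.4, and the red points lie between 36.6 and 124.6.

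The genes most like fib-1 in rank over the pooled, replicate 1 and replicate 2 lists were taken from 1449 genes with the nearest 5′ end to a peak matched in all 3, by the smallest sum of absolute log2 rank differences. They were rpb-11 (ranks 125, 44 and 209, sum 0.54), a subunit gene of RNA polymerase II, tomm-20 (ranks 102, 60 and 138, sum 1.22), which encodes a receptor of the mitochondrial import complex, and chmp-7 (ranks 148, 57 and 230, sum 1.29), a homolog of an ESCRT gene. With 3 lists, 1 of which pools the others, this is a description of ranks only.

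The sequences at the summits differed in base composition. Within 100 bp on either side of the summit, the GC content was 46.3% at fib-1, 38.8% at nol-56, and 43.3% and 44.3% at the weaker and the stronger nol-58 summit. It was 47.3% at nol-10, 35.8% at nol-6 and 34.3% at nol-14. The IDR set had a median of 43.3% (quartiles 38.3% and 48.3%), so nol-6 and nol-14 lay below its lower quartile and the other 5 summits between its quartiles. The weaker nol-58 summit, whose pooled signal was also low (38.5), stood at the median.

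Of 5 short motifs searched on both strands in these windows, 1 was present. TTTCAG, which contains the usual end of a worm intron, occurred in 3 of the 7 windows (the stronger nol-58 summit, nol-6 and nol-14) and in 17.1% of all IDR windows. The other 4 were in none of the 7 windows. CACGTG occurred in 4.33% of all IDR windows, TATAAA in 12.6%, GAGAGA in 41.2% and TTTCCCGC in 2.54%. The absence of a motif says only that these letters are not in these windows.

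The run in capitals above, AGGTCTCGCAGCGA, was the longest shared by any pair of the 7 windows on either strand and was found by comparing these sequences, so it has no test. It lay from 66 to 53 bp upstream of fib-1 and from 236 to 223 bp upstream of nol-56, on the strand of the gene in both. Other pairs of windows shared runs of 7 to 11 bases. Among all IDR windows it occurred in 5 of 2404 (0.208%), the other peaks being nearest to the ribosomal protein gene rps-4 (signal 111.1), to pqn-70 and to the mitotic kinase gene plk-1 (signal 41.8). It occurred in 0 of the 27596 pooled candidates outside the IDR set.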

How the data were processed

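The ChIP-seq of eGFP-MEP-1 has 2 biological replicates of 1 group and was described without p-values. The authors deposited narrowPeak lists with a signal value, a −log10 q-value and a summit per region. The replicate and pooled lists hold peaks and background as input for IDR, per the file headers and labels. Pooled candidates in the windows of the 6 genes but outside the IDR set had −log10 q-values between 0.07 and 0.65. The sources used here do not name the aligner, the caller or the IDR threshold. A control alignment is named in the descriptions of the replicate 1 and pooled lists, but not in that of the ce11 list of replicate 2. The ce10 lists were not used here. All peaks of the IDR set share the −log10 q-value ceiling of 3.70, so the deposited signal values gave the ranks.

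Summits were assigned to Ensembl release 115 genes on WBcel235 (Python 3.11.15, pandas 2.3.3, numpy 2.4.6), and sequences came from the RefSeq genome of that assembly. The coordinate steps were tested on simulated summits. Members, lists and motifs were chosen with earlier results of these data known. Named genes are the 6 members, neighbours of their IDR summits (nearest 5′ end, or within 2 kb), up to 4 genes with the highest signal per role group, and the 3 genes most like fib-1. A few further genes of the nucleolar list are named for a replicate rank or a missing match. Of 46 listed nucleolar genes, 3 had no match and were not analysed. Alternatives changed the window, the peak set, the assignment, the matching distance and the sequence window.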

Additional observations from a re-analysis of the deposited data

How the results depend on the processing

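All 6 genes kept an IDR summit when the window began 1000 bp upstream and ended 200 bp inside the gene, when it began 500 bp upstream, or when any overlap counted. The share of all protein-coding genes was then 11.4%, 11.2% and 17.1%, against 16.1%. With the 1202 strongest IDR peaks, 4 of the 6 genes, 14 of the 37 other nucleolar genes and 9.18% of all genes had one, and nol-6 and nol-14 did not. Counting the nearest 5′ end only gave 4 genes, 16 others and 9.92%. Without replicate 1 or without replicate 2, the range was 5 to 5 genes, 23 to 25 others and 14.3% to 15.7%. Matching within 50 bp left 5 of the 7 summits matched in both replicates, without the weaker nol-58 summit and nol-6. Matching by 50% overlap of both regions also left 5, without fib-1 and the stronger nol-58 summit. Their pooled regions were narrow (166 and 87 bp) beside the 380 bp of replicate 1. Matching within 200 bp left all 7. TTTCAG was in 1 of the 7 windows with 50 bp on either side of the summit, against 3 with 100 bp. Causes were not tested. No paired analysis was possible because there is 1 group. Depth is unknown, so the weight of each replicate in the pooled list is too, and with 2 replicates no spread was estimated.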

Other observations

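The 7 pieces of 8 bases within the run shared by fib-1 and nol-56 were each more frequent in IDR windows (1.37% to 5.41%) than in the other 27596 pooled candidates (0.29% to 1.04%). The piece GTCTCGCA was in 102 IDR windows (4.24%), among them those of fib-1, nol-56 and nol-58, and in 143 others (0.518%). The pieces overlap and were chosen after the sequences were seen, so these shares are a description. Of all 2404 IDR summits, 902 (37.5%) lay between 340 and 91 bp upstream of the nearest 5′ end, the range of the 4 summits to which fib-1, nol-56, nol-6 and nol-10 are themselves nearest. Beyond the windows, the nearest IDR summits upstream lay 6535 bp from nol-10 (signal 95.0), 8630 bp from nol-14 (signal 114.5) and 26919 bp or more from fib-1, nol-6 and nol-58.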
